A study of Mus musculus with 8 samples.

Results

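This account follows 10 genes that mark the crypt base columnar stem cell of the small intestine, in the RNA of 8 libraries from 2 separate experiments. The genes were taken by symbol: Lgr5, Lgr4, Ascl2, Olfm4, Smoc2, Tnfrsf19, Cdca7, Cd44, Msi1 and Prom1. All 10 were found among the 21757 genes of the mouse count table of the first experiment and, as upper-case human symbols, among the 60237 gene identifiers of the second. In the first experiment, 2 libraries of Ctnnb1-ex3 organoids (self-renewing epithelial cultures from mouse small intestine, grown with Noggin and EGF) were set against 2 libraries of wild-type (WT) organoids, which also received Wnt3a and R-spondin1. Alleles written Ctnnb1-ex3 are usually beta-catenin genes that can lose exon 3, a stretch that encodes the sites that mark the protein for destruction. Genotype and medium differed together, so their parts in a difference cannot be told apart. In the second experiment, 2 libraries of cells carrying sh-Prmt1, a short hairpin RNA that targets the main enzyme of asymmetric arginine dimethylation, were set against 2 libraries with a scrambled hairpin (sh-scramble). The labels call these mouse organoids too, but every identifier in their files is a human gene, so they are described by human symbols and the culture behind them is not established here. The labels do not give the age or strain of the animals, the Cre line, the number of hairpins, or whether replicates were separate cultures, so p-values speak only of library-to-library spread, possibly of technical origin. For a single value, an exact permutation test of 2 libraries against 2 could not go below a two-sided p of 0.333.

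Crypt base columnar cells sit between Paneth cells at the bottom of the intestinal crypt and renew the epithelium throughout life. Their program depends on Wnt signalling. R-spondins bind the receptors LGR4 and LGR5 and thereby remove the ubiquitin ligases RNF43 and ZNRF3, which would otherwise clear Wnt receptors from the membrane; beta-catenin then acts with TCF/LEF factors on target genes that include Lgr5 itself, Ascl2, Tnfrsf19 and Cd44.

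The libraries of the first experiment held 2951887 to 6015933 counts and those of the second 39608119 to 53193272 estimated counts. Levels within an experiment are given as CPM, counts per 1000000 counts of a library whose size was scaled by edgeR's TMM factors, and a gene was called when the edgeR quasi-likelihood test gave a Benjamini-Hochberg adjusted p under 0.05 over all genes tested. The lowest value in the mouse table is 1, so 1 stands there for a gene that may have had no read. Epithelial markers were abundant in both experiments. Epcam, a surface protein of epithelial cells, averaged 358 ± 85.1 CPM in Ctnnb1-ex3 and 516 ± 111 CPM in WT libraries (SD, n = 2 each), and its human counterpart averaged 1758 ± 19.5 CPM in sh-Prmt1 and 1321 ± 12.8 CPM in sh-scramble libraries (SD, n = 2 each). The intestinal factor gene CDX2 stood at 20.6 ± 0.579 TPM in sh-Prmt1 and 19.9 ± 1.12 TPM in sh-scramble libraries (SD, n = 2 each). Lymphocyte markers stood apart in Ctnnb1-ex3 replicate 2, where the granzyme gene Gzma had 110 counts and the leukocyte gene Ptprc 25; Ctnnb1-ex3 replicate 1 had 1 count of each, and the WT libraries had 1 of Gzma and at most 4 of Ptprc.

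The allele was not checked by level: Ctnnb1 averaged 253 ± 50.4 CPM in Ctnnb1-ex3 and 381 ± 58.2 CPM in WT libraries (SD, n = 2 each; log2 fold change -0.59, edgeR adjusted p = 0.0504), and counts per gene do not show which exons were read.

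In the first experiment, 8 of the 10 stem cell genes rose in Ctnnb1-ex3 organoids and 0 fell. All 10 passed the filter on low counts, and their median log2 fold change was 1.86, against 0.02 for all genes tested. Among all 12976 genes tested, 20.3% rose, 20.5% fell and thus 40.8% were called. The called rises ran from a log2 fold change of 0.60 for Smoc2 to 5.61 for Tnfrsf19, and Lgr4 and Prom1 were not called. Leaving out WT replicate 1 or WT replicate 2 left 6 members called as higher, without Smoc2 and Msi1, while the number of all genes called dropped to 2960 or 2634, against 5291 with all libraries. In bulk RNA, more cells of a type and more RNA per cell cannot be told apart.

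**Figure D1:**
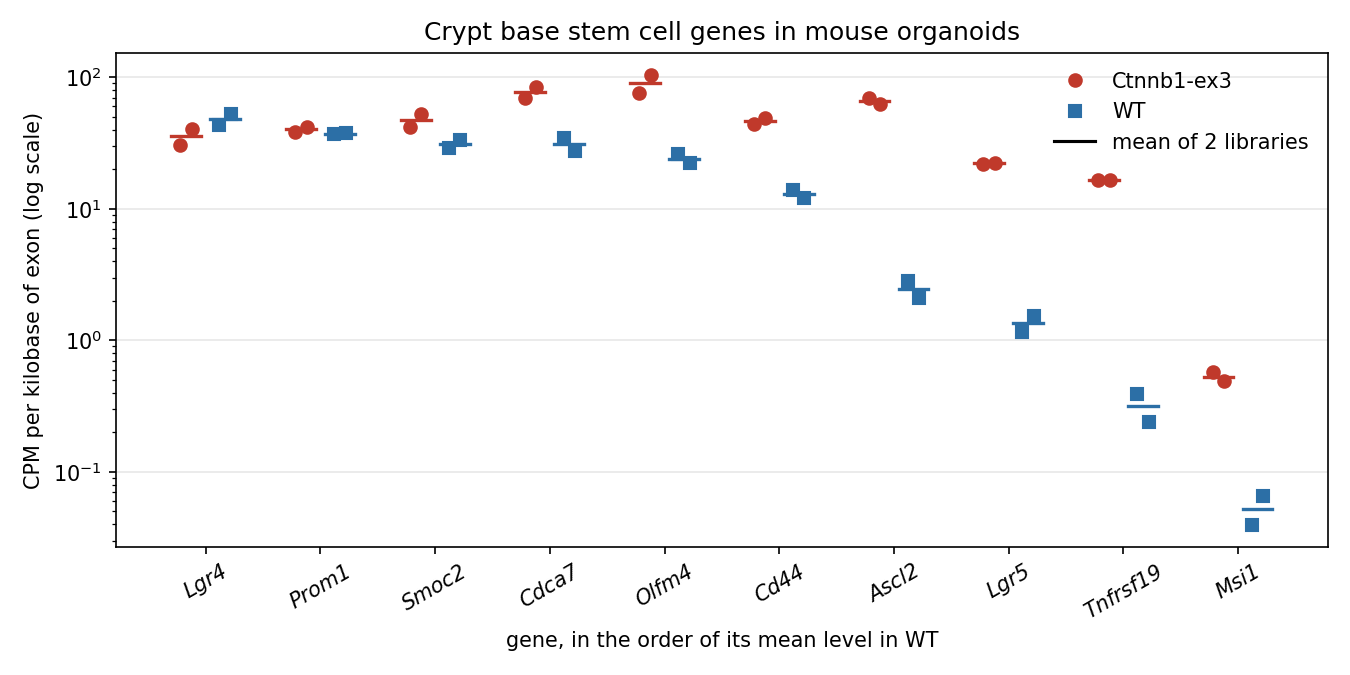
Level of each stem cell gene in CPM per kilobase of annotated exon (log scale) in the 2 Ctnnb1-ex3 libraries (circles) and the 2 WT libraries (squares), with bars at the means, for genes ordered by their WT mean. Ascl2, Lgr5 and Tnfrsf19 show wide gaps, Msi1 is at the lowest value of the counts in both WT libraries, so that its gap is not measured, and the levels of Prom1 nearly coincide and those of Lgr4 lie lower in Ctnnb1-ex3.

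Of the R-spondin receptor genes, Lgr5 rose and Lgr4 was not called. Lgr5, the defining marker of crypt base columnar cells (mm10 chromosome 10, 115450311 to 115587780, minus strand), had 1495 and 897 counts in the Ctnnb1-ex3 libraries, against 52 and 41 counts in the WT libraries. These correspond to 225 and 230.4 CPM in Ctnnb1-ex3 and to 12.0 and 15.6 CPM in WT. Both Ctnnb1-ex3 libraries were thus far above both WT libraries, and nearly level with each other. The rise was 16.8-fold, with a 95% interval of 12.7 to 22.3 (log2 fold change 4.07 ± 0.18, SE; edgeR adjusted p = 2.39e-05), and 0.555% of the genes tested had a higher log2 fold change. Lgr4, the more widely expressed receptor of the same family (chromosome 2, 109917647 to 110014257, plus strand), had 179 and 238 CPM in Ctnnb1-ex3, against 257 and 308 CPM in WT. Its groups did not overlap, but the difference did not pass the test (log2 fold change -0.44, 95% interval -0.89 to 0.01; edgeR adjusted p = 0.107). Leaving out Ctnnb1-ex3 replicate 2, the library with lymphocyte RNA, gave a call of lower Lgr4 (-0.66, edgeR adjusted p = 0.0179), and the authors' deposited table lists it at -0.44 with an adjusted p of 0.0254. Scaled to exon length, Lgr4 stood at 35.5 ± 7.12 CPM per kilobase and Lgr5 at 22.2 ± 0.396 in Ctnnb1-ex3 libraries (SD, n = 2). In WT libraries the same scale gave 48.0 ± 6.11 for Lgr4 and 1.34 ± 0.25 for Lgr5 (SD, n = 2). Lgr6, the remaining receptor of the family, was not tested, with 4 and 8 counts in Ctnnb1-ex3 and 1 and 1 in WT.

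The ubiquitin ligase genes that the R-spondin receptors act on both rose. Rnf43 averaged 113 ± 19.0 CPM in Ctnnb1-ex3 and 37.5 ± 0.256 CPM in WT libraries (SD, n = 2 each; log2 fold change 1.58, edgeR adjusted p = 0.000451). Znrf3 averaged 138 ± 2.53 CPM in Ctnnb1-ex3 and 93.7 ± 2.99 CPM in WT libraries (SD, n = 2 each; log2 fold change 0.56, edgeR adjusted p = 0.011). The call of Znrf3 was lost without WT replicate 1 (0.49, edgeR adjusted p = 0.187) and without WT replicate 2 (0.57, edgeR adjusted p = 0.127). The R-spondin ligand genes did not pass the filter. Rspo1, Rspo2 and Rspo3 had 2 to 5 counts per Ctnnb1-ex3 library and 1 to 5 per WT library, and Rspo4 had 25 and 4 counts in Ctnnb1-ex3 and 1 and 1 in WT.

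Ascl2 encodes the basic helix-loop-helix factor that drives the stem cell program (chromosome 7, 142966829 to 142969264, minus strand). It had 757 and 396 counts in Ctnnb1-ex3 libraries, against 20 and 9 counts in WT libraries. Its levels of 114 and 102 CPM in Ctnnb1-ex3 lay far above the 4.6 and 3.42 CPM of WT. The rise was 25.9-fold, with a 95% interval of 18.0 to 37.5 (log2 fold change 4.70 ± 0.23, SE; edgeR adjusted p = 3.59e-05).

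Tnfrsf19 encodes a receptor of the tumour necrosis factor family, also called Troy, that is a Wnt target of crypt base cells (chromosome 14, 60963875 to 61046490, minus strand). It had the largest log2 fold change of the 10 genes in the main fit, with 519 and 303 counts in Ctnnb1-ex3, against 8 and 3 counts in WT. The size of the rise thus rests on few WT counts. With 1 taken away from every count, its log2 fold change was 5.90, and that of Msi1 was 6.67. The Ctnnb1-ex3 libraries agreed closely at 78.0 and 77.8 CPM, whereas the WT libraries stood at 1.84 and 1.14 CPM. The rise was 48.9-fold, with a 95% interval of 30 to 79.6 (log2 fold change 5.61 ± 0.30, SE; edgeR adjusted p = 4.47e-05), and 0.0385% of the genes tested had a higher log2 fold change.

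The promoters of Tnfrsf19 and Ascl2 are shown because these genes had the largest log2 fold changes of the 10 in the main fit. RefSeq promoters (build GRCm38.p6, 250 bases before to 50 after an annotated start) were at hand for 7 of the 10 genes, with 9 promoters in all. Each was searched on both strands for CTTTGAT, a core motif of TCF/LEF factors, and for CAGCTG, an E-box of the kind that basic helix-loop-helix factors bind; neither overlaps the other. Capitals mark the matches in the sequences below, which are written along the strand of the gene. The first is Ascl2 at chr7:142969215-142969514, minus strand; the others are the upstream and downstream promoters of Tnfrsf19 at chr14:61046806-61047105 and chr14:61037938-61038237, minus strand.
Ascl2: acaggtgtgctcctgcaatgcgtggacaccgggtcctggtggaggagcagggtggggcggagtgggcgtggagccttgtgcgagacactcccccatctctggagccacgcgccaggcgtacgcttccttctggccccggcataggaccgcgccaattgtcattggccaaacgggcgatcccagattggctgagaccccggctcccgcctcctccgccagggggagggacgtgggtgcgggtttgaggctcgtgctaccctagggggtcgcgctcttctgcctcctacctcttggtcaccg
Tnfrsf19 upstream: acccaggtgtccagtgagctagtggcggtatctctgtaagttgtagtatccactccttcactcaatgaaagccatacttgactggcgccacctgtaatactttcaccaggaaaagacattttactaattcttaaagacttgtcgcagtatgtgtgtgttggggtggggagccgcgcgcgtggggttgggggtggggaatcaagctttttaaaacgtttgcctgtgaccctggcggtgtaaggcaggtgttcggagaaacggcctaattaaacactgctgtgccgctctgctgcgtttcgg
Tnfrsf19 downstream: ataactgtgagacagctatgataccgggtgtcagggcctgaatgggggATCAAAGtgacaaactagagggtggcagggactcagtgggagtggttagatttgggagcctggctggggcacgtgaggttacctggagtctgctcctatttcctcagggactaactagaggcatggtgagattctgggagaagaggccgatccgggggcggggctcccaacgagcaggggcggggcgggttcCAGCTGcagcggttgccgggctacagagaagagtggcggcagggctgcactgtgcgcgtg
The downstream Tnfrsf19 promoter was the 1 of 9 that held CTTTGAT, as ATCAAAG on the strand shown with its first base at -202 from the start, and also the 1 of 9 that held CAGCTG, at -10. Among all 32851 promoters of this length, 3.73% held CTTTGAT and 16.3% held CAGCTG. The promoters of Ascl2, Olfm4, Cdca7, Cd44, Lgr4 and Prom1 held neither. A match is a description of letters in this window only.

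The genes of both secreted products among the members rose. Olfm4 encodes a secreted glycoprotein of crypt base cells (chromosome 14, 79984081 to 80023139, plus strand). It had 226 and 306 CPM in Ctnnb1-ex3, against 77.1 and 65.8 CPM in WT. The groups were well apart, with a log2 fold change of 1.89 ± 0.19 (SE; edgeR adjusted p = 0.000401), a 3.70-fold rise. Smoc2, which encodes a secreted calcium-binding matrix protein (chromosome 17, 14279506 to 14404790, plus strand), had 292 and 369 CPM in Ctnnb1-ex3, against 201 and 234 CPM in WT. It was the smallest called rise, 1.52-fold (log2 fold change 0.60 ± 0.19, SE; edgeR adjusted p = 0.0335). Smoc2 was no longer called with DESeq2's size factors (0.57, edgeR adjusted p = 0.0511), without Ctnnb1-ex3 replicate 2 (0.42, edgeR adjusted p = 0.1), without WT replicate 1 (0.47, edgeR adjusted p = 0.334) and without WT replicate 2 (0.70, edgeR adjusted p = 0.0914). Among relatives of this pair, Olfm1 rose, with 227 and 88 counts in Ctnnb1-ex3 and 9 and 2 in WT (log2 fold change 4.19, edgeR adjusted p = 0.000848); without WT replicate 1 its log2 fold change was 5.15. Smoc1 had 44 and 1 counts in Ctnnb1-ex3 and 17 and 10 in WT, so its Ctnnb1-ex3 libraries lay on either side of the WT libraries (log2 fold change -0.08, edgeR adjusted p = 0.958). When Ctnnb1-ex3 replicate 1 was left out, Smoc1 was called as lower (-3.75, edgeR adjusted p = 0.00214).

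Of the surface markers, Cd44 rose and Prom1 was not called. Cd44 encodes the hyaluronan receptor, a Wnt target of crypt cells (chromosome 2, 102811141 to 102901665, minus strand). It had 302 and 331 CPM in Ctnnb1-ex3, against 94.4 and 81.4 CPM in WT, a 3.58-fold rise (log2 fold change 1.84 ± 0.16, SE; edgeR adjusted p = 0.000242). Without Ctnnb1-ex3 replicate 2, the library with lymphocyte counts, the difference was 1.77 on the log2 scale (edgeR adjusted p = 2.09e-09). Prom1 encodes the membrane protein CD133 (chromosome 5, 43993620 to 44102032, minus strand). It had 278 and 299 CPM in Ctnnb1-ex3, against 265 and 269.7 CPM in WT. The difference was small, with a log2 fold change of 0.11 and a 95% interval of -0.25 to 0.47 (edgeR adjusted p = 0.604). Its relative Prom2 had 2 and 4 counts in Ctnnb1-ex3 and 1 and 2 in WT and was not tested. Counts per gene do not separate the splice forms of Cd44.

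Cdca7 encodes a nuclear zinc finger protein that cycles with cell division and is a target of MYC (chromosome 2, 72476159 to 72486893, plus strand). It had 224 and 269 CPM in Ctnnb1-ex3, against 110 and 88.3 CPM in WT, a 2.48-fold rise (log2 fold change 1.31 ± 0.18, SE; edgeR adjusted p = 0.00116). Proliferation genes moved beside it: 6 of 9 rose and 0 fell (median log2 fold change 0.74). Pcna (-0.09), Ccnb1 (-0.03) and Cdk1 (-0.04) were not called. The part of proliferation genes in the rise of Cdca7 was not tested. Those with the lowest p were the replicative helicase gene Mcm3 (log2 fold change 1.30, edgeR adjusted p = 0.000404), the spindle checkpoint gene Bub1 (1.01, edgeR adjusted p = 0.00201) and the helicase gene Mcm5 (0.98, edgeR adjusted p = 0.00277). The paralogue Cdca7l averaged 34.6 ± 4.91 CPM in Ctnnb1-ex3 and 22.4 ± 3.76 CPM in WT libraries (SD, n = 2 each) and was not called (log2 fold change 0.62, edgeR adjusted p = 0.101). It was called without Ctnnb1-ex3 replicate 2 (0.74, edgeR adjusted p = 0.0194).

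Msi1 encodes Musashi-1, an RNA-binding repressor of translation (chromosome 5, 115429599 to 115455698, plus strand), and was the scarcest of the 10. It had 22 and 11 counts in Ctnnb1-ex3, while both WT libraries had 1, the table's lowest value. Set against a floor of 3 counts in each WT library, its mean was at least 3.35-fold higher in Ctnnb1-ex3, and with Msi1 at this bound the median log2 fold change of the 10 genes was 1.79. The fitted difference passed the test (edgeR adjusted p = 0.01), but not without WT replicate 1 (edgeR adjusted p = 0.351), without WT replicate 2 (edgeR adjusted p = 0.221) or with DESeq2 (adjusted p = 0.0884), and the authors' deposited table gives it an adjusted p of 0.203. Its paralogue Msi2 averaged 181 ± 12.6 CPM in Ctnnb1-ex3 and 125 ± 1.52 CPM in WT libraries (SD, n = 2 each) and rose (log2 fold change 0.53, edgeR adjusted p = 0.0185). The call of Msi2 was lost without WT replicate 1 (0.52, edgeR adjusted p = 0.197) and without WT replicate 2 (0.51, edgeR adjusted p = 0.193).

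The order of the 10 genes by level differed between the groups. Levels here are CPM per kilobase of annotated exon, given as mean ± SD with n = 2, and neighbours are called apart where mean ± SD did not overlap. In Ctnnb1-ex3 libraries Olfm4 led with 89.8 ± 19.0, followed by Cdca7 with 77.1 ± 9.99 and Ascl2 with 66.4 ± 5.25. These neighbours lay within their spread of each other. Smoc2 (47.5 ± 7.84), Cd44 (46.7 ± 3.02), Prom1 (40.2 ± 2.10) and Lgr4 (35.5 ± 7.12) formed the middle, where Smoc2 and Cd44 were not apart, nor were Prom1 and Lgr4. They stood ahead of Lgr5, Tnfrsf19 (16.4 ± 0.0246) and Msi1 (0.529 ± 0.0586). In WT libraries Lgr4 led, followed by Prom1 (37.2 ± 0.509), Smoc2 (31.3 ± 3.33), Cdca7 (30.9 ± 4.76) and Olfm4 (24.1 ± 2.70), of which Smoc2 and Cdca7 were not apart, nor were Cdca7 and Olfm4. Cd44 (13 ± 1.36), Ascl2 (2.47 ± 0.515), Lgr5, Tnfrsf19 (0.315 ± 0.105) and Msi1 followed. Ascl2 thus stood ahead of Smoc2, Cd44, Prom1 and Lgr4 in Ctnnb1-ex3 and behind all of them in WT.

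Other genes of the crypt base moved in the same direction as the members. All 14 of a further list of crypt base markers, which also holds Rnf43, Znrf3 and Lrig1, passed the filter and all 14 rose, with a median log2 fold change of 1.51. Fewer of these markers were called when WT replicate 1 or WT replicate 2 was left out. Those with the lowest p were Mex3a, an RNA-binding protein gene of slowly cycling stem cells (log2 fold change 3.8), Axin2, the feedback scaffold of the beta-catenin destruction complex (3.40), and Ephb3, the receptor that keeps cells at the crypt base (3.09). Of 4 genes of reserve stem cells Hopx (0.76) and Lrig1 (0.73) rose, and Bmi1 and Tert were not called. Bmi1 was just short of the threshold (0.52, edgeR adjusted p = 0.0504), and its groups did not overlap. Tert had 7 to 34 counts per library (-0.92, edgeR adjusted p = 0.31). Without WT replicate 1 the calls of Hopx (0.63, edgeR adjusted p = 0.111) and Lrig1 (0.62, edgeR adjusted p = 0.131) were lost. Markers of neighbouring and differentiated cells moved beside the stem cell genes. Of 8 Paneth cell markers 4 rose, and the antibacterial lectin gene Reg3g fell (-1.66). Those that rose were the phospholipase gene Pla2g2a (log2 fold change 4.84), the defensin gene Defa22 (2.30), the matrix protease gene Mmp7 (1.19) and the ribonuclease gene Ang4 (0.78). Lyz1 (0.05), Itln1 (0.26) and a further defensin gene, Defa24 (-0.12), were not called. Of 10 enterocyte markers 9 fell (median log2 fold change -1.81), and those with the lowest p were the keratin gene Krt20 (-2.62), the lipid transfer gene Mttp (-2.88) and the alkaline phosphatase gene Alpi (-3.78, and -4.64 without Ctnnb1-ex3 replicate 1). Of 11 stromal and endothelial markers 2 were tested and 0 called; their summed level was 33.9 to 47.0 CPM in Ctnnb1-ex3 and 14.8 to 30.4 CPM in WT libraries, with Lum at 1 count in every library. Of 12 immune markers 5 were tested and 1, the antigen-presentation gene Cd74, fell (log2 fold change -1.72, edgeR adjusted p = 0.0499, and -2.51 without Ctnnb1-ex3 replicate 2), a call lost without Ctnnb1-ex3 replicate 1 (0.097), without WT replicate 1 (0.372) and without WT replicate 2 (0.295). Their summed level was 17.4 to 81.4 CPM in Ctnnb1-ex3 and 22.4 to 103 CPM in WT libraries, where the myeloid gene Lyz2 had 323 counts in WT replicate 1 and 3 in WT replicate 2. Of 7 epithelial markers 2 fell, the keratin gene Krt19 (-0.66, edgeR adjusted p = 0.0485) and the microvillus gene Vil1 (-0.75, edgeR adjusted p = 0.0119). The call of Krt19 was lost without any 1 of Ctnnb1-ex3 replicate 1 (-0.45), WT replicate 1 (-0.87) and WT replicate 2 (-0.47), and that of Vil1 without WT replicate 1 (-0.85) or WT replicate 2 (-0.68). The part of these cell types in the rise of the stem cell genes was not tested.

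**Figure D2:**
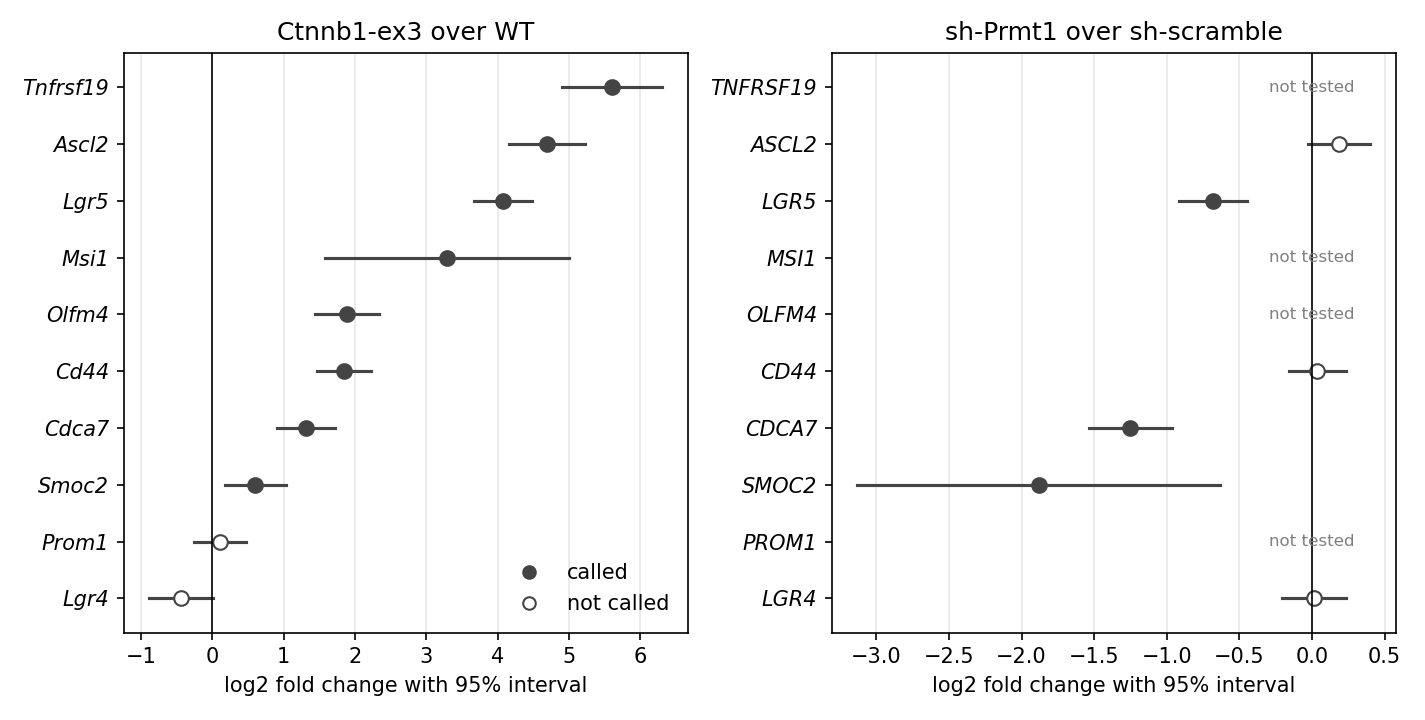
Log2 fold change of each stem cell gene with its 95% interval (bars), for Ctnnb1-ex3 over WT on the left and sh-Prmt1 over sh-scramble on the right; filled points were called and open points were not. On the left 8 called genes lie to the right of 0, and on the right the called LGR5, CDCA7 and SMOC2 lie to the left of 0.

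In the second experiment the hairpin target was checked first. PRMT1 had 128 and 190 estimated counts in sh-Prmt1 libraries, against 1373 and 1451 in sh-scramble libraries, and averaged 3.17 ± 0.252 CPM in sh-Prmt1 and 35.6 ± 1.99 CPM in sh-scramble libraries (SD, n = 2 each; log2 fold change -3.48, edgeR adjusted p = 1.01e-06). Of the 10 stem cell genes 6 passed the filter on low counts; 3 of them fell (LGR5, CDCA7 and SMOC2) and 0 rose. Among all 18448 genes tested, 20.4% fell, 20.6% rose and thus 41.0% were called. In the first experiment Prmt1 itself rose, with 341 and 126 counts in Ctnnb1-ex3 and 44 and 30 in WT (log2 fold change 1.97, edgeR adjusted p = 0.00287). The remaining tested members, LGR4, ASCL2 and CD44, were not called, and OLFM4, TNFRSF19, MSI1 and PROM1 had too few reads to test. The median log2 fold change of the 6 tested genes was -0.33, against 0.03 for all genes tested.

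**Figure D3:**
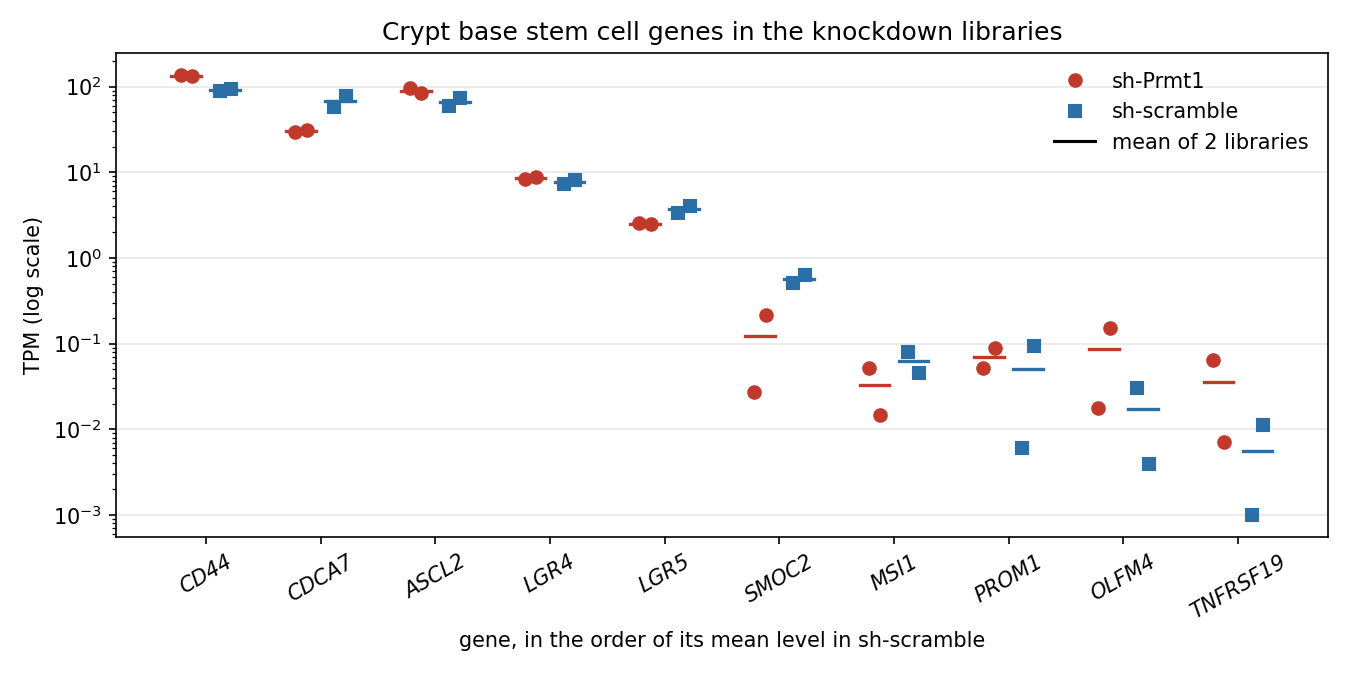
TPM of each stem cell gene (log scale) in the 2 sh-Prmt1 libraries (circles) and the 2 sh-scramble libraries (squares), with bars at the means, for genes ordered by their sh-scramble mean; a TPM of 0 is drawn at 0.001. CDCA7 and LGR5 lie lower in sh-Prmt1, CD44, ASCL2 and by a smaller margin LGR4 lie higher, and the 5 genes on the right stay under 1 TPM in every library.

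LGR5 had 857 and 1172 estimated counts in sh-Prmt1 libraries, against 1104 and 1498 in sh-scramble libraries. Scaled for depth these were 20 and 20.6 CPM in sh-Prmt1 and 29.8 and 35.3 CPM in sh-scramble. The groups did not overlap, and LGR5 fell to 0.624 of its sh-scramble level (log2 fold change -0.68 ± 0.10, SE; edgeR adjusted p = 0.000702). Its companion receptor gene LGR4 had 76.4 and 88.1 CPM in sh-Prmt1, against 77.5 and 85.2 CPM in sh-scramble. Its groups overlapped, and the 95% interval of its log2 fold change ran from -0.20 to 0.24 (edgeR adjusted p = 0.916). The ligase genes RNF43 (log2 fold change -0.11, edgeR adjusted p = 0.468) and ZNRF3 (-0.17, edgeR adjusted p = 0.178) were not called. The R-spondin genes RSPO1 to RSPO4 and LGR6 had 1 to 9 estimated counts per sh-Prmt1 library and 0 to 2 per sh-scramble library and were not tested.

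CDCA7 changed the most among the well expressed members. It had 118 and 134 CPM in sh-Prmt1, against 263 and 338 CPM in sh-scramble. Each sh-Prmt1 library thus lay well under both sh-scramble libraries, with a log2 fold change of -1.25 ± 0.13 (SE; edgeR adjusted p = 6.49e-05). Proliferation genes moved beside it: 5 of 9 fell and 0 rose (median log2 fold change -0.36), among them the replication clamp gene PCNA (-0.81), the cyclin gene CCNB1 (-0.50) and the topoisomerase gene TOP2A (-0.44, and -0.21 with effective lengths, where it was not called). Of the genes not called, MCM5 (0.29) and MCM2 (0.17) lay above 0, and MCM3 (-0.18) and BUB1 (-0.19) lay below it. The part of proliferation genes in the fall of CDCA7 was not tested. The paralogue CDCA7L stood at 34.9 ± 2.88 CPM in sh-Prmt1 and 36.3 ± 0.108 CPM in sh-scramble libraries (SD, n = 2 each) and was not called (log2 fold change -0.06, edgeR adjusted p = 0.657).

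ASCL2 had 67.4 and 62.1 CPM in sh-Prmt1, against 53.0 and 60.5 CPM in sh-scramble. Both sh-Prmt1 libraries were slightly higher, but the difference did not pass the test (log2 fold change 0.19, 95% interval -0.03 to 0.40; edgeR adjusted p = 0.145). SMOC2 was scarce, with 4 and 19 estimated counts in sh-Prmt1 and 29 and 37 in sh-scramble. It was called as lower (log2 fold change -1.88 ± 0.56, SE; edgeR adjusted p = 0.0221). The call was lost without sh-Prmt1 replicate 1 (-1.31, edgeR adjusted p = 0.0985) and without sh-scramble replicate 2 (-1.82, edgeR adjusted p = 0.0634), whereas the log2 fold change was -3.12 without sh-Prmt1 replicate 2 (edgeR adjusted p = 0.00758). It was also lost with offsets for effective gene length (-2.45, edgeR adjusted p = 0.0678), and the authors' deposited table gives it an adjusted p of 0.0637.

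CD44 is a member whose call depended on whether effective gene lengths were used. It had 331 and 349 CPM in sh-Prmt1, against 330.5 and 333 CPM in sh-scramble, and was not called (log2 fold change 0.04, 95% interval -0.16 to 0.23; edgeR adjusted p = 0.774). In TPM, which divides reads by the length of the transcripts they were assigned to, it stood at 137 and 132 in sh-Prmt1 and at 89.3 and 93.9 in sh-scramble. The mean length that Salmon assigned to CD44 transcripts was 1618 and 1651 bases in sh-Prmt1, against 2003 and 2004 bases in sh-scramble. Replicates agreed closely and the groups did not overlap. With effective gene lengths in the offsets of the same test, CD44 was called as higher (log2 fold change 0.39, edgeR adjusted p = 0.011). The authors' deposited table lists it at 0.31 with an adjusted p of 0.0104, but under the class NS, as it does every member. That class does not follow the adjusted p alone. It also holds CDCA7, at -1.33 with an adjusted p of 1.69e-18, and LGR5, at -0.75 with an adjusted p of 6.2e-06. CD44 transcripts differ in a block of variant exons, and the gene-level files do not say which forms were counted. Length was looked at after the values of CD44 had been seen. Among 11538 genes with a mean of at least 100 estimated reads, 43.3% had mean transcript lengths that did not overlap between the groups, and 6.0% had such a shift at least as large as that of CD44, whose log2 length ratio was -0.29. LGR5, LGR4 and CDCA7 had log2 length ratios of 0.04, -0.02 and 0.02, and a single length of 1852 bases was assigned to ASCL2 in every library. ASCL2 nevertheless also differed more in TPM (means of 89.6 in sh-Prmt1 and 66.0 in sh-scramble) than in CPM (64.7 in sh-Prmt1 and 56.8 in sh-scramble). So did LGR4, with 8.59 TPM in sh-Prmt1 and 7.72 in sh-scramble, against 82.3 and 81.4 CPM. LGR5 and CDCA7 were lower in sh-Prmt1 on both scales, by a smaller factor in TPM. LGR5 had 2.50 TPM in sh-Prmt1 and 3.70 in sh-scramble, against 20.3 and 32.6 CPM. CDCA7 had 30.6 TPM in sh-Prmt1 and 67.3 in sh-scramble, against 126 and 300 CPM. How much of the TPM gap of CD44 came from length was not tested.

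**Figure D4:**
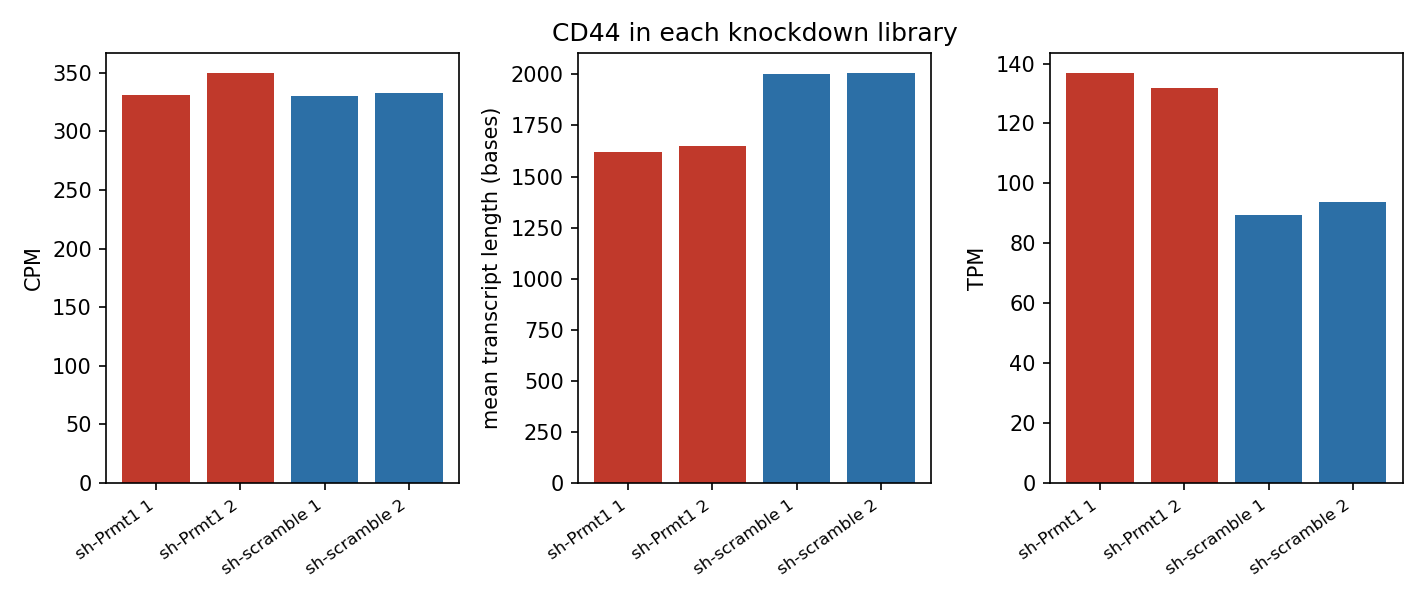
CD44 in each of the 2 sh-Prmt1 and 2 sh-scramble libraries, as CPM (left), mean transcript length assigned by Salmon in bases (middle) and TPM (right), with 1 bar per library. CPM is nearly level, length is lower in both sh-Prmt1 libraries, and TPM is higher in both.

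The genes that were too scarce to test are among the most used markers of crypt base cells. OLFM4 had 4 and 49 estimated counts in sh-Prmt1 and 7 and 1 in sh-scramble, so a single sh-Prmt1 library stood out while the other lay between the sh-scramble libraries. With no filter it was called as higher (log2 fold change 2.23, edgeR adjusted p = 0.005), as it was without sh-Prmt1 replicate 1 (3.03, edgeR adjusted p = 0.019) and without sh-scramble replicate 1 (4.19, edgeR adjusted p = 0.0107), but not without sh-scramble replicate 2 (1.36, edgeR adjusted p = 0.303). TNFRSF19 had 4 and 3 estimated counts in sh-Prmt1 and 0 and 1 in sh-scramble. MSI1 had 5 and 2 in sh-Prmt1 and 1 and 5 in sh-scramble, and PROM1 had 4 and 9 in sh-Prmt1 and 1 and 8 in sh-scramble. In TPM the members stood in the order CD44 (134 ± 3.31), ASCL2 (89.6 ± 7.95), CDCA7 (30.6 ± 0.969), LGR4 (8.59 ± 0.325) and LGR5 (2.50 ± 0.041) in sh-Prmt1 libraries, with no neighbours within their spread (SD, n = 2). In sh-scramble libraries CD44 (91.6 ± 3.23) led, CDCA7 (67.3 ± 13.9) and ASCL2 (66.0 ± 9.94) did not differ beyond their spread, and LGR4 (7.72 ± 0.649) and LGR5 (3.70 ± 0.472) followed (SD, n = 2).

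Other crypt base markers were mixed in the knockdown. Of 13 tested, 2 rose (CDK6 and SOAT1), 3 fell (EPHB3, MEX3A and SLC12A2) and 8 were not called (median log2 fold change -0.10). EPHB3 averaged 8.07 ± 0.743 CPM in sh-Prmt1 and 78.3 ± 13 CPM in sh-scramble libraries (SD, n = 2 each; log2 fold change -3.27, edgeR adjusted p = 1.64e-06). MEX3A fell as well (-1.30), and the cell cycle kinase gene CDK6 rose (0.83). CTNNB1, which encodes beta-catenin, fell (-0.72, edgeR adjusted p = 0.00542). Of the paralogues of the members, MSI2 fell (-0.90, edgeR adjusted p = 0.000161) and PROM2 rose (1.44, edgeR adjusted p = 0.00628). Of 4 tested reserve stem cell genes BMI1 fell (-0.29) and the others were not called; without sh-Prmt1 replicate 1 the call of BMI1 was lost (edgeR adjusted p = 0.188), as it was without sh-scramble replicate 2 (edgeR adjusted p = 0.12). Of 4 tested Paneth cell markers MMP7 (1.14), PLA2G2A (1.15) and LYZ (1.33) rose and DEFA6 fell; the call of LYZ was lost without sh-Prmt1 replicate 1 (1.06, edgeR adjusted p = 0.114). Of 5 tested enterocyte markers FABP1 fell (-0.46). Stromal markers summed to 1.88 to 2.76 CPM in sh-Prmt1 and 1.29 to 1.32 CPM in sh-scramble libraries, with 0 of 4 tested markers called. Of 5 tested immune markers CD68 rose (1.80); the T cell gene CD3E had 2 and 5 estimated counts in sh-Prmt1 and 0 and 0 in sh-scramble, and GZMA was at 0 in every library. Of 7 epithelial markers EPCAM (0.41, edgeR adjusted p = 0.00569) and KRT19 (0.74, edgeR adjusted p = 0.000161) rose, and 5 were not called.

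Set side by side, the 2 experiments share no control and differ in species by their identifiers. Lgr5 had a log2 fold change of 4.07 in Ctnnb1-ex3 organoids and -0.68 in sh-Prmt1 libraries, and Cdca7 had 1.31 in Ctnnb1-ex3 and -1.25 in sh-Prmt1. Smoc2 had 0.60 in Ctnnb1-ex3 and -1.88 in sh-Prmt1, with the dependence on single libraries given above. Ascl2 had 4.70 in Ctnnb1-ex3 and 0.19 in sh-Prmt1, where it was not called. Cd44 had 1.84 in Ctnnb1-ex3 and 0.04 in sh-Prmt1, where it was called only with effective gene lengths. Lgr4 had -0.44 in Ctnnb1-ex3 and 0.02 in sh-Prmt1, and the main fits called it in neither. The difference between the experiments was not tested.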

How the data were processed

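Polyadenylated RNA was sequenced from 8 libraries by a custom Smart-seq2 protocol, per the labels' protocols, and groups and replicate numbers came from the sample titles. For the first experiment the authors deposited whole-number counts per mouse gene, with no value below 1. For the second the deposited files hold, per the file headers, estimated counts, TPM and other values (mean and effective transcript lengths) from Salmon for each gene. Each experiment also has the authors' deposited table of log2 fold changes and adjusted p-values. The submitters' processing notes name mm10, Salmon and DESeq2 without versions; for the human build and annotation, nothing is stated in the sources used here. Smart-seq2 in its standard form keeps no strand. Exons of Olfm4 and Prom1 overlap another gene of GENCODE M21, and the other 8 members overlap none.

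The experiments were modelled separately, in edgeR 4.0.16 under R 4.3.3 (TMM, filterByExpr, glmQLFit, glmQLFTest, two-sided, Benjamini-Hochberg over all genes tested), after estimated counts were rounded; 57 human sex-linked identifiers were left out. The SE of a log2 fold change is its size over the square root of F. Alternatives used DESeq2 1.42.0, limma-voom (limma 3.58.1), other scalings and filters, a replicate block, effective lengths, 1 taken from every mouse count, and each library left out. The members and lists were chosen with earlier results of these data known. Text names every member, every tested gene of the R-spondin and paralogue lists, up to 3 called genes with the lowest p per other list, and a few checks; other names were chosen after their values were seen. Floors of 3 counts and intervals cover counting error or library spread only.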

Additional observations from a re-analysis of the deposited data

How the results depend on the processing

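The following counts cover only members tested in the main fit, so the calls of OLFM4 given above are not among them. Of these members' fold changes under the alternatives, 100 kept their direction and their side of the threshold in the Ctnnb1-ex3 comparison. A further 2 newly passed and 7 no longer passed. In the knockdown these numbers were 55, 1 and 3, and 7 changed sign. The sign changes were small: LGR4 had a log2 fold change of -0.0059 with DESeq2's size factors and with DESeq2's own test, -0.016 with no filter, -0.11 without sh-Prmt1 replicate 2 and -0.099 without sh-scramble replicate 1, and CD44 had -0.019 and -0.018 without those libraries; with a library left out, LGR4 ranged from -0.11 to 0.10 and CD44 from -0.019 to 0.063. Outside the members, Smoc1 had 0.17 with upper-quartile factors and -3.75 to 0.77 with a library left out (0.77 without Ctnnb1-ex3 replicate 2), ZNRF3 0.46 with effective lengths, and CDCA7L 0.097 with effective lengths and -0.16 to 0.01 with a library left out (0.0103 without sh-Prmt1 replicate 2). For each, the cause was not tested.

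The number of members that fell in Ctnnb1-ex3 was 0, 1 (Lgr4, -0.45, edgeR adjusted p = 0.0038) with the replicate block, and 0 to 1 with a library left out. Members that rose in the knockdown numbered 0, 1 with no filter (OLFM4), 1 with effective lengths (CD44) and 0 to 1 with a library left out. No pairing by replicate number is stated. Same-numbered deviations correlated at 0.0706 for Ctnnb1-ex3 and WT and at -0.0514 for the knockdown, which cannot show whether same-numbered libraries shared a batch. With the block there were 6484 calls against 5291 in the first experiment and 7091 against 7559 in the second.

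In the Ctnnb1-ex3 comparison the immune list had 1 call, 0 with upper-quartile factors, DESeq2 or 1 taken away, 5 with no filter, and 0 to 7 with a library left out. The epithelial list had 2 calls, 1 with DESeq2's size factors, upper-quartile factors or 1 taken away, 4 with no filter or DESeq2, 5 with the block, and 0 to 4 with a library left out. With a library left out, the R-spondin list had 1 to 3 calls, the paralogues 1 to 3, the reserve list 0 to 4 and proliferation 3 to 6. In the knockdown the reserve list had 1 call, 2 with upper-quartile factors or the block and 0 to 2 with a library left out; the enterocyte list had 1 call, 2 with DESeq2's size factors, DESeq2, limma-voom or effective lengths and 1 to 2 with a library left out; the epithelial list had 2 calls and 4 with DESeq2; and proliferation had 3 to 6 with a library left out.

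Upper-quartile factors moved the median of all genes to 0.26, against 0.02, and the share of calls that rose to 68.0%, against 49.8%; relative to that median Lgr4 (-0.20) and Prom1 (0.35) lay on the same sides. With no filter the knockdown median was 0.31. Without Ctnnb1-ex3 replicate 1, Msi1 was not tested. With 1 taken away from every count, the fitted log2 fold change of Msi1 was 6.67, against 3.29. On the TMM-scaled CPM scale, 3 counts came to 0.451 to 1.14 CPM in the mouse libraries and 0.0528 to 0.0809 CPM in the knockdown libraries.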

Other observations

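The genes most like Lgr5 were looked for within each experiment among genes averaging 3 or more in log2 CPM. They were ranked by the root mean square difference of gene-centred log2 levels over its 4 libraries. A constant was added to every CPM before the log, which shrinks differences where levels are low. With so few libraries this is a description of level differences only. Of 11098 genes ranked in the first experiment, the nearest was Mid1, which encodes a microtubule-associated ubiquitin ligase, with 127 and 124 CPM in Ctnnb1-ex3 and 6.45 and 9.51 CPM in WT (difference 0.0828). The interferon-induced membrane protein gene Ifitm1 was next, with 39.5 and 37.2 CPM in Ctnnb1-ex3 and 1.61 and 1.52 CPM in WT (0.15). Efemp1 (0.189), Rab34 (0.198) and Stox2 (0.206) followed. Their fitted log2 fold changes of 5.71, 4.72 and 4.56 were larger than the 4.07 of Lgr5, and Efemp1 had only 0.23 and 0.38 CPM in WT. Of 8508 genes ranked in the second experiment, the nearest to LGR5 were RPL37A (0.0128), BLZF1 (0.0153), TBRG1 (0.0162), TMEM256 (0.0188) and EAF2 (0.0202). RPL37A, a ribosomal protein gene, had 926 and 946 CPM in sh-Prmt1 and 1329 and 1606 CPM in sh-scramble. No gene was named in both lists.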
